A study of Mus musculus with 9 samples.

Results

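Long non-coding genes held 1415 of the 30998 SAFB peaks in the deposited list (4.56%, 95% Wilson interval 4.34 to 4.80). A peak was taken when its midpoint lay in a gene on the same strand that GENCODE M21 gives 1 of 8 long non-coding types, and in no protein-coding gene on that strand. The 8 types are lincRNA, antisense, processed_transcript, sense_intronic, sense_overlapping, bidirectional_promoter_lncRNA, macro_lncRNA and 3prime_overlapping_ncRNA. The peaks come from RNA immunoprecipitation and sequencing (RIP-seq) of SAFB1 from sonicated mouse embryonic stem cells. The cells were male, CAST/B6 in background and Rosa26-RMCE, and all were given doxycycline for 3 days. The 9 libraries comprise 3 made with the SAFB1 antibody from unmodified cells (the parent line and 2 wild-type clones), 1 with the FLAG antibody from a Safb1/2 double-knockout clone carrying a full-length SAFB1 rescue plasmid, 2 with the SAFB1 antibody from double-knockout clones, 1 with the FLAG antibody from a double-knockout clone carrying an eGFP plasmid, and 2 with IgG from the parent line and a wild-type clone. For the rescue library the labels disagree, with a wild-type genotype but a title that names a double-knockout clone, and it was grouped by its title. A single list was deposited for all libraries, with positions and no reads, so no group could be compared with another, no value has replicates, and the depth behind a peak is unknown. RNA abundance was not part of the list either.

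SAFB1 (scaffold attachment factor B) is a nuclear protein with an RNA recognition motif and a DNA-binding SAP domain, and it is found with chromatin and the nuclear matrix. Long non-coding RNAs are transcripts without a long open reading frame. Many stay in the nucleus near the place where they are made, and some, such as Kcnq1ot1, Airn and Xist, silence genes on the chromosome that produces them. A frequent kind starts at the promoter of a coding gene and runs the other way (divergent transcription), another lies antisense over a coding gene, and lincRNAs lie between genes. In embryonic stem cells, divergent transcripts of active promoters are common, and a family named Platr (pluripotency-associated transcripts) is known from these cells.

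Sequence could be read for the peaks lying in exons, from the GENCODE M21 transcripts of GRCm38, the assembly also named mm10. The 120-base windows printed here come from exonic peaks of known nuclear or imprinted RNAs and of Gm37494, an uncharacterised lincRNA with 4 exonic peaks. They show the purine-rich runs counted later in the text. Each is the stretch of its peak with most bases in the hexamer AGAAGA or either of its shifted forms, of which GAAGAA begins 1 base later and AAGAAG begins 2 bases later in a GAA repeat, so the hexamers overlap one another and the windows are not typical of the peak. The last Kcnq1ot1 window is the contrast, from the peak of that RNA with the lowest purine share, and holds none of these hexamers. Bases read 5′ to 3′ on the transcribed strand, and capitals mark the hexamers.
Malat1, chr19:5801779-5801898, minus strand: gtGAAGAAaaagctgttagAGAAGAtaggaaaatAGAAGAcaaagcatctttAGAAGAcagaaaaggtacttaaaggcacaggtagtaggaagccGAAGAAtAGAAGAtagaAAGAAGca
Jpx, chrX:103529948-103530067, plus strand: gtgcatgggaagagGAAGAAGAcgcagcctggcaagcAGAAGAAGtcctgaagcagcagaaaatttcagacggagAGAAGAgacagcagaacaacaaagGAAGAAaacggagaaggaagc
Ftx, chrX:103570429-103570548, minus strand: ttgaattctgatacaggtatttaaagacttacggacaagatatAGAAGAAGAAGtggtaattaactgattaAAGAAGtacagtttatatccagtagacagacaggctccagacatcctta
Tsix, chrX:103483174-103483293, plus strand: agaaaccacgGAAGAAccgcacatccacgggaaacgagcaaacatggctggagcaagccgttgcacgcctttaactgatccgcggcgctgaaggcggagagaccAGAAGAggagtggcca
Meg3, chr12:109559506-109559625, plus strand: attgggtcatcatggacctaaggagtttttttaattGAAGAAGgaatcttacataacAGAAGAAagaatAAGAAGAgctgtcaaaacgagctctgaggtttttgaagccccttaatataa
Kcnq1ot1, chr7:143248200-143248319, minus strand: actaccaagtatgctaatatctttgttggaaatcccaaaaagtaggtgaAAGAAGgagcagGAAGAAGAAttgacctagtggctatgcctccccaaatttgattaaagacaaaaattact
Kcnq1ot1, chr7:143252420-143252539, minus strand: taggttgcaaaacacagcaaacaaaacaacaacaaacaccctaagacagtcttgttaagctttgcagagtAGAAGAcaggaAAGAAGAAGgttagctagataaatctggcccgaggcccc
Kcnq1ot1, chr7:143253610-143253729, minus strand: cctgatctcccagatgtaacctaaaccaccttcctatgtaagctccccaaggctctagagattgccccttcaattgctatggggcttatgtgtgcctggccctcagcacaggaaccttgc
Gm37494, chr7:39575516-39575635, plus strand: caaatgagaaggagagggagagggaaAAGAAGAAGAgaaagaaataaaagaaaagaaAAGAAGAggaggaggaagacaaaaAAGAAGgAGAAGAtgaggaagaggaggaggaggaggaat

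Malat1 had 42 of its 120 bases in the hexamers, Gm37494 29, Jpx 28, Meg3 21, Ftx 17, the first and second Kcnq1ot1 windows 15 each, and Tsix 12. Purines made up 95% of the Gm37494 window, 77.5% of the Jpx window and 76.7% of the Malat1 window, against 41.7% of the last Kcnq1ot1 window.

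The 1415 peaks fell in 747 of 10155 long non-coding genes (7.36%). Of 21951 protein-coding genes, 5750 had a same-strand peak (26.2%). That count keeps every such peak, whereas peaks also in a coding gene were not counted for long non-coding genes. Under 3 kb the shares were 3.48% of long non-coding and 2.88% of coding genes. From 3 to 10 kb they were 5.67% and 7.46%, and at 100 kb or more 20.7% and 68.2%. A single peak was found in 494 of the 747 genes (66.1%), while 5 or more were found in 49 genes and 10 or more in 12. In the 20 genes with most members were 272 of them (19.2%). The peaks covered 1134 kb in all, with 659 in plus-strand and 756 in minus-strand genes. Every autosome and the X, with 69, had at least 1, and the Y had 0. Outside coding genes of their own strand, long non-coding genes carried 7.51 peaks per Mb (exact Poisson interval 7.12 to 7.91), against 17.97 per Mb (17.7 to 18.2) in protein-coding genes. Median width was 641 bases (interval 604 to 685, quartiles 341 and 1127.5), against 659 (646 to 671) for the 18929 peaks in coding genes. These intervals overlap. The membership rule left out 162 peaks that lay in a same-strand coding gene as well. At its border, 145 members had their midpoint under 500 bases inside the gene end or start, and 107 further peaks lay up to 500 bases outside. Of the members, 32 lay in 2 long non-coding genes at once and were counted for each gene in counts per gene. In the shares by gene type, position and exon such a peak was taken once, by its shorter gene.

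Gene types differed in how many of their genes carried a peak. The types were not matched for gene length or divergent starts, and that share was higher in longer genes and with divergent starts, as given below. The processed_transcript type, a GENCODE label for spliced RNAs without a closer class, had a peak in 145 of 790 genes (18.4%), bidirectional_promoter_lncRNA in 26 of 190 (13.7%), antisense in 267 of 2959 (9.02%) and lincRNA in 304 of 5854 (5.19%). Of the small types, sense_overlapping had 4 of 30 (13.3%), macro_lncRNA 1 of 2 (50%), and 3prime_overlapping_ncRNA 0 of 3. Of the 327 sense_intronic genes, 315 lie wholly inside a same-strand coding gene and could hold no member under the rule, and the type had 0 members. Counted by peaks, lincRNA genes held 607 (42.9%), antisense genes 470 (33.2%), processed_transcript genes 293 (20.7%) and bidirectional_promoter_lncRNA genes 37 (2.61%). The remaining 8 peaks were 5 in sense_overlapping and 3 in macro_lncRNA genes.

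Relative to coding genes, the peaks were first divided by location. Those inside a coding gene of the opposite strand were called antisense, and of the rest those in a gene whose start lay within 2 kb of the start of an opposite-strand coding gene were called divergent. Others were called downstream, upstream or facing when within 10 kb after the end of a same-strand coding gene, before its start, or of an opposite-strand coding gene, and distant otherwise. With these windows distant peaks were the most numerous, with 567 (40.1%, interval 37.5 to 42.6), then divergent with 392 (27.7%, 25.4 to 30.1) and antisense with 329 (23.3%, 21.1 to 25.5). Few were facing (68, or 4.81%), downstream (43, or 3.04%) or upstream (16, or 1.13%). Downstream and distant shares depend on the window. With windows of 50 kb downstream was 10.7% and distant 24.4%, below the divergent share, which that window does not set. With windows of 5 kb they were 1.70% and 43.7%.

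The division followed the gene types in part by construction, since GENCODE names several types by position. Of the 607 lincRNA peaks 413 were distant (68.0%) and 97 divergent (15.98%). Antisense genes had 229 of 470 peaks in the antisense position (48.7%) but also 173 in the divergent one (36.8%). Processed_transcript genes had 119 of 293 distant (40.6%), 88 divergent (30.0%) and 57 antisense (19.5%). In bidirectional_promoter_lncRNA genes 34 of 37 were divergent (91.9%).

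**Figure D1:**
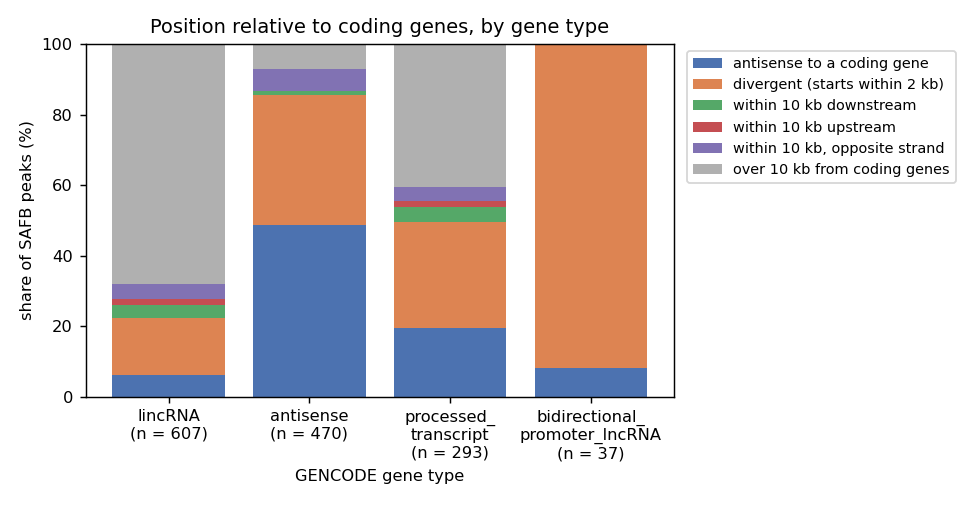
Share of SAFB peaks (%) in each position relative to coding genes, stacked by GENCODE gene type, with the number of peaks under each bar. Distant peaks fill 68.0% of the lincRNA bar, and divergent peaks 91.9% of the bidirectional_promoter_lncRNA bar.

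A few long non-coding genes carried long rows of peaks. 2610307P16Rik, an uncharacterised processed_transcript (ENSMUSG00000085936.7, chr13:28460034-28885620, minus strand), held 43, with a median gap of 8.18 kb, spread from 6.95 to 402 kb from its start. None lay in an exon, and together they covered 8.09% of its 425.6 kb. Gm14005, a lincRNA (ENSMUSG00000074813.13, chr2:128178319-128502765, minus strand), held 23, again all in introns and all between 75.4 and 263 kb from the start of a gene of 324.4 kb. The lincRNA 9330185C12Rik (ENSMUSG00000097648.1, chr1:113891385-113964134, minus strand) held 22 in 72.75 kb, which covered 17.2% of its length, with a median gap of 2.21 kb. These 3 genes had all their peaks over 10 kb from any coding gene.

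Airn and Kcnq1ot1, both imprinted antisense RNAs expressed from the paternal copy in the tissues where they silence their neighbours, followed. Airn (ENSMUSG00000078247.4, chr17:12741311-12860136, plus strand), which starts inside an intron of Igf2r, held 21, covering 19.8% of its 118.8 kb. Its peaks were 200 to 2274 bases wide (median 981), and their midpoints ran from 1.17 to 77.1 kb from the start, so the 3′ part of the annotated gene had none. Within Airn, 9 peaks lay over Igf2r, 3 within 10 kb of a coding gene of the opposite strand, and 9 farther from coding genes. Igf2r itself had 0 same-strand peaks. Kcnq1ot1 (ENSMUSG00000101609.2, chr7:143203458-143296549, minus strand) held 19, each 74 to 2230 bases wide (median 525), between 4.53 and 84.8 kb from its start. Every Kcnq1ot1 peak was antisense to Kcnq1, a potassium channel gene, which had 1 same-strand peak over 320.7 kb. Kcnq1ot1 is annotated as an unspliced RNA of 93092 bases, so its peaks are exonic by annotation, whereas those of Airn, annotated with introns, are all intronic.

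Next in number was Pvt1, the lincRNA beside the Myc gene (ENSMUSG00000097039.8, chr15:62037986-62378096, plus strand), with 14. They lay between 114.5 and 338 kb from its start, leaving the 5′ part of the gene empty, and 1 was exonic. 2610037D02Rik, 6030443J06Rik and AC174800.1 had 13 each, Gm38825 and Gm2164 12 each, and 4732471J01Rik 10. AC174800.1 overlaps 2700054A10Rik (9 peaks) on the same strand, and 7 peaks were counted for both. Those 7 were placed by the start of 2700054A10Rik, the shorter gene, and so were called distant. The rest of the 20 genes with most peaks had 8 or 7: 5031425E22Rik, 4933407K13Rik, Gm29724, Dleu2, C330002G04Rik and Otx2os1 had 8 each, and Gm5535 had 7. AC174471.1 also had 7, and Gm5535 was ranked before it by peaks per kb. Dleu2 hosts microRNAs lost in chronic lymphocytic leukaemia, and Otx2os1 starts 5111 bases from Otx2, a homeobox gene of early brain and stem cells.

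**Figure D2:**
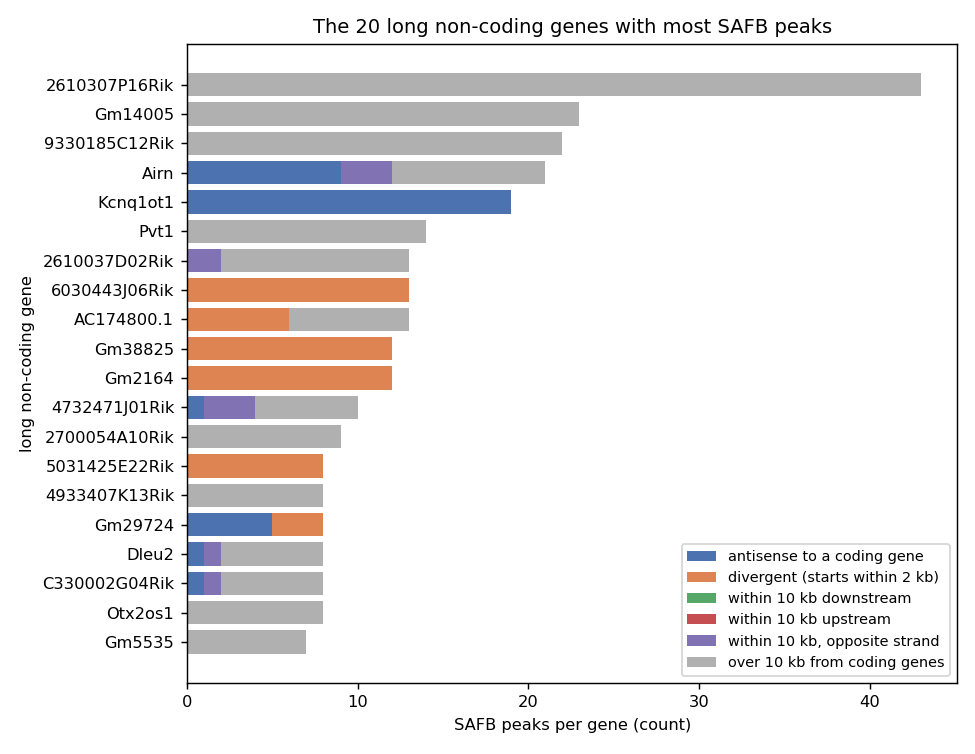
SAFB peaks per gene (count) in the 20 long non-coding genes with most peaks, coloured by position relative to coding genes. 2610307P16Rik, with 43, and Gm14005, with 23, are distant throughout, Kcnq1ot1 is antisense throughout, and 6030443J06Rik, Gm38825 and Gm2164 are divergent throughout.

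Short genes with many peaks were found as well. Among genes with at least 5 peaks, the highest density was in Platr4, a lincRNA of 9.17 kb (chr3:41484024-41493192, minus strand), with 5 peaks or 0.545 per kb, covering 27.5% of the gene from 0.145 to 8.35 kb from its start. 4933412E12Rik had 0.444 per kb (6 peaks), 5730419F03Rik 0.414 (6), Gm11520 0.355 (5) and Gm48293 0.325 (5). Peaks covered 37.1% of Gm11520 and 31.6% of 5730419F03Rik. Among genes with fewer peaks, 2 peaks of Platr3 covered 41.8% of its 3.16 kb, 2 of Gm12847 34.7% of 3.80 kb, and 1 of 4932422M17Rik 62.9% of 2.64 kb. Platr3 and 4932422M17Rik are upstream of Plcb4 and Setd1b on the same strand, and Gm12847 is downstream of Atpaf1. The position of AC161456.1 (2 peaks) is also downstream, after Lsm3.

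**Figure D3:**
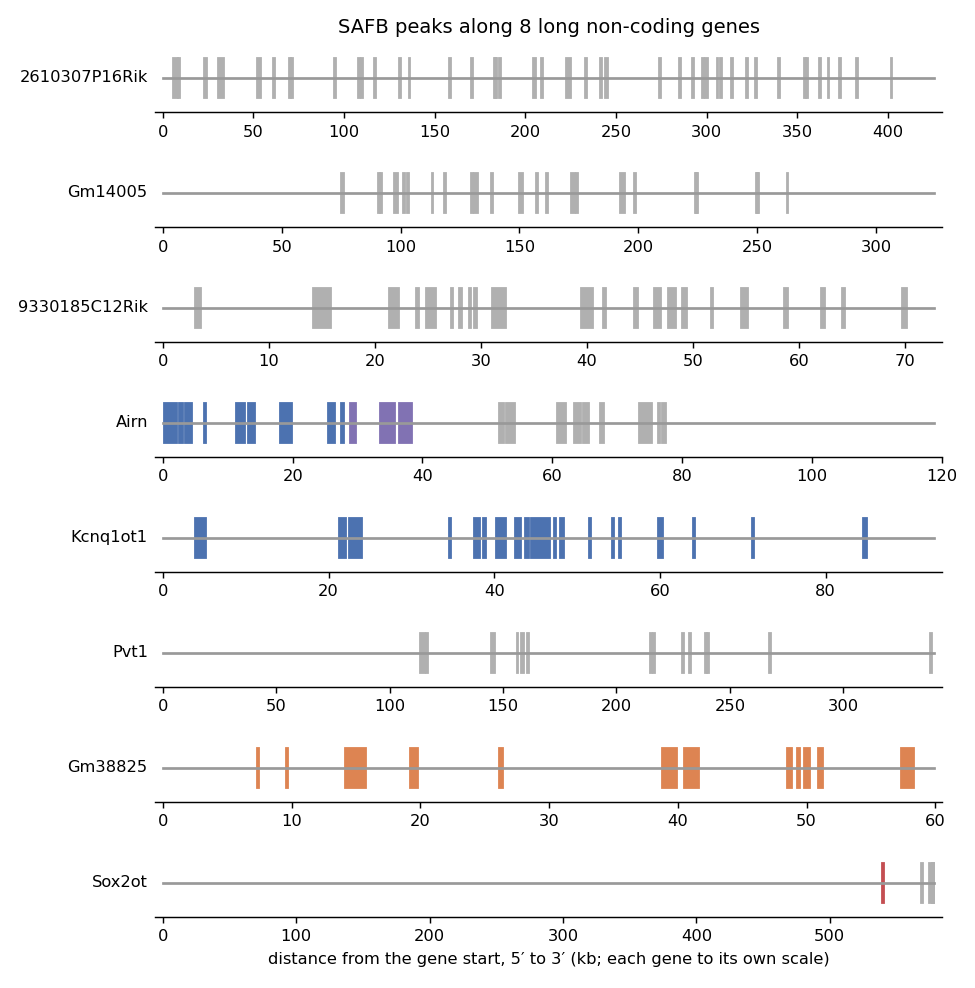
Positions of SAFB peaks along 8 long non-coding genes, drawn from the gene start (0 kb) in the direction of transcription, each gene to its own scale in kb, with the narrowest peaks drawn wider than scale so that they can be seen, and colours by position relative to coding genes (grey distant, blue antisense, orange divergent, purple facing, red upstream). The 5 peaks of Sox2ot sit between 539 and 577 kb of 578 kb, and those of Airn end at 77.1 kb of 118.8 kb.

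Genes that start divergently from a coding gene carried peaks in a larger share than other long non-coding genes. Of the 1665 long non-coding genes with a divergent start, 283 had a peak (17%, interval 15.3 to 18.9), against 464 of the 8490 others (5.47%, 5.00 to 5.97). Both sets were short, with medians of 5.68 and 6.21 kb. Within each length class the divergent genes had the larger share. Under 3 kb it was 7.94% against 2.42%, from 3 to 10 kb 15.5% against 3.94%, from 10 to 30 kb 23.1% against 7.38%, and from 30 to 100 kb 33.2% against 8.86%, with intervals that do not overlap. At 100 kb or more the shares were 28.8% (18.3 to 42.3) and 19.4% (15.4 to 24.1), with overlapping intervals. Set beside coding genes of the same length, the divergent share was higher under 10 kb, where coding genes had 2.88% and 7.46%, near it from 10 to 30 kb (21.3%), and lower from 30 to 100 kb (42.4%) and above (68.2%). Long non-coding genes overlapping a coding gene of the opposite strand had a peak in 381 of 3597 cases (10.6%, 9.63 to 11.6), and those without such an overlap in 366 of 6558 (5.58%, 5.05 to 6.16). The overlapping and divergent sets share genes, Gm38825 and Gm2164 among them, so the contrasts are not separate. Shares by overlap were not divided by length. The part of transcript abundance in these differences was not tested.

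**Figure D4:**
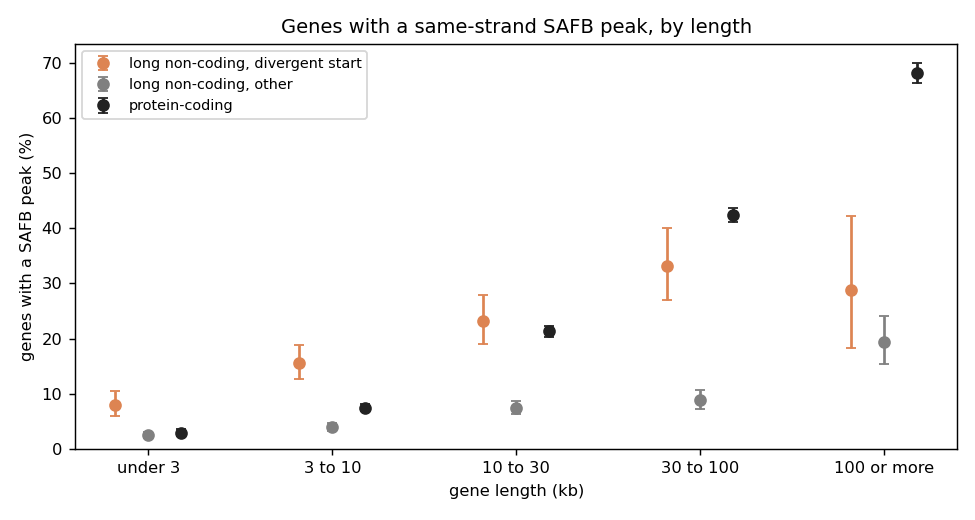
Share of genes with at least 1 same-strand SAFB peak (%), by gene length in kb, for divergent long non-coding genes, other long non-coding genes and protein-coding genes, with 95% Wilson intervals as bars. Divergent genes lie above the other long non-coding genes in all 5 length classes, with overlapping intervals only at 100 kb or more.

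Several divergent genes held more peaks than the coding gene beside which they start. 6030443J06Rik (chr5:22550432-22807850, plus strand) starts 3 bases from Orc5, a subunit of the origin recognition complex, and held 13 peaks while Orc5 held 2. Gm2164 (chr4:124528924-124657169, minus strand) starts 362 bases from Pou3f1, a POU transcription factor whose gene is 3.85 kb long, and held 12 against 0. Gm38825 (chr6:67179799-67239710, minus strand) starts 1534 bases from Serbp1, which encodes an mRNA-binding protein, and held 12 against 1. Gm38825 and Serbp1 are of similar length, 59.9 kb and 59.6 kb. 5031425E22Rik starts 172 bases from Kmt2e, a relative of histone methyltransferases, and held 8 against 2. Gm11520 starts 183 bases from Kat7, a histone acetyltransferase, and held 5 against 0, and AC174800.1, 839 bases from Afdn, held 6 divergent ones against 0. Gm4890, a bidirectional_promoter_lncRNA 186 bases from Mmaa, held 3 against 2. These pairs were picked for the number of peaks in the non-coding gene, which favours that direction. Counts were also not adjusted for length. 6030443J06Rik (257.4 kb), Gm2164 (128.2 kb) and AC174800.1 (272.1 kb) were longer than Orc5 (63.9 kb), Pou3f1 (3.85 kb) and Afdn (145.6 kb). 5031425E22Rik (52.0 kb), Gm11520 (14.1 kb) and Gm4890 (13.8 kb) were shorter than Kmt2e (69.8 kb), Kat7 (36.0 kb) and Mmaa (31.3 kb). Of all 232 coding partners of divergent peaks, 104 had a same-strand peak of their own (44.8%, interval 38.6 to 51.3). Among all coding genes that share was 26.2%, but the partners were longer, with a median of 27.6 kb against 17.4 kb.

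Antisense peaks lay over 210 coding genes, of which 102 had a peak on their own strand (48.6%, interval 41.9 to 55.3), with a median length of 35.9 kb. These coding genes too were longer than the median of all coding genes, 17.4 kb, of which 26.2% had a peak. Of the 329 antisense peaks, 98 had their midpoint over an exon of the coding gene (29.8%) and 40 over its coding sequence (12.2%). Gm29724 had 5 over Adamts8, a secreted metalloprotease gene with 0 peaks of its own, and 3 in the divergent position beside Zbtb44. Gm48293 had 5 over Clmp, a cell adhesion gene with 9 peaks on its own strand. Gm17435 had 4 over Med26, a Mediator subunit, 3 of them exonic, and Gm48796 3 over Jam3, all exonic, covering 40.4% of its 3.79 kb. Distant peaks, at the other extreme, lay a median of 66.5 kb from the nearest coding gene (quartiles 32.5 and 172, highest 1791 kb), and 211 of the 567 were over 100 kb away (37.2%).

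Exons held 380 of the 1415 peaks (26.9%, interval 24.6 to 29.2) and introns 1035. In protein-coding genes 2846 of 18929 were exonic (15.0%, 14.5 to 15.6). How much of each kind of gene is exon was not compared here. Distant peaks had the lowest exonic share of the position classes, 17.1% (14.2 to 20.4), against 31.1% (26.7 to 35.9) of divergent and 34.7% (29.7 to 39.9) of antisense peaks. By type it was 22.7% for lincRNA, 21.8% for processed_transcript, 33.6% for antisense and 48.6% for bidirectional_promoter_lncRNA genes. Kcnq1ot1 supplied 5% of the exonic peaks, and without it the share was 25.9%. With each gene counted once it was 36.2%. Shares by position class were not recomputed without single genes. All 19 Kcnq1ot1 peaks were antisense and exonic. Of the distant peaks, 43 in 2610307P16Rik, 23 in Gm14005 and 22 in 9330185C12Rik were all intronic. After Kcnq1ot1 the most exonic peaks were in Ftx and Gm37494 (4 each), then Gm48796, Gm17435, A930037H05Rik and 4933407K13Rik (3 each). Exonic peaks were wider, with a median of 725 bases (673 to 799) against 612 (568 to 644) for intronic ones. Coding genes had the same direction, with 769.5 (734 to 808) against 639 (625 to 652).

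Distances from the gene start were shorter in long non-coding than in coding genes, which are longer genes. The median was 10.9 kb (quartiles 2.98 and 38.3), against 61.5 kb (20.2 and 152) in coding genes. Within 1 kb of the start were 162 (11.4%), against 290 (1.53%) in coding genes. The first 10% of the gene held 12.7% of the peaks (11.1 to 14.6), against 8.25% (7.87 to 8.65) in coding genes, and in genes of at least 10 kb 13.3% (11.4 to 15.5) against 8.32% (7.93 to 8.72). For the last 10% of all these genes the shares were 11.7% (10.2 to 13.5) against 10.9% (10.5 to 11.4), with overlapping intervals. Divergent peaks had a median distance of 6.95 kb from the start, antisense ones 7.85 kb and distant ones 21.8 kb.

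Imprinted and X-linked regulators were read as lists, beside the 7.36% of all long non-coding genes that had a peak. That share rose with gene length, from 3.48% under 3 kb to 20.7% at 100 kb or more. Median length was 25.2 kb in the imprinted list and 62.9 kb in the X-inactivation list, and the lists were not matched for length. The lists were chosen with earlier results of these peaks known, so their counts are a description. Of 10 imprinted long non-coding RNAs 7 had a peak, 52 in all: Airn 21, Kcnq1ot1 19, Mirg 4, Nespas 3, Meg3 and Rian 2 each, and Snhg14 1. H19, Nctc1 and Peg13 had 0, and Peg13 is sense_intronic. Meg3, Rian and Mirg are made in the same direction from the maternal copy of the Dlk1-Dio3 region on chromosome 12. Meg3 (chr12:109541001-109571726, plus strand) had peaks of 2796 and 944 bases, both exonic, and the 4 peaks of Mirg covered 25.0% of its 19.7 kb. Nespas, an antisense RNA at the imprinted Gnas locus, had 3 facing Gnas, 2 of them exonic.

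All 5 X-inactivation RNAs of the list had a peak, 18 in all, in cells with 1 X chromosome. Ftx had 6 and Jpx 4, both activators of Xist in the X-inactivation centre. Firre had 5, all intronic. Tsix, the antisense repressor of Xist, had 2, both exonic, at 50.8 and 53.4 kb from its start. Xist (chrX:103460366-103483254, minus strand), which coats the inactive X, had 1 peak of 1205 bases in an exon, with its midpoint 22.2 kb from the start of a gene of 22.9 kb. That peak had 52.3% purines. Xist was chosen outside the rule for named genes, after its values were seen.

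Of 9 nuclear-body and chromatin RNAs 5 had a peak: Pvt1 14, Dleu2 8, Lncpint 3, Malat1 2 and Miat 1, while Neat1, Tug1, Lockd and Rmrp had 0. Among all long non-coding genes the share with a peak was 7.36%. Median length in the list was 20.8 kb, and the list was not matched for length. Malat1, a nuclear speckle RNA (chr19:5795690-5802672, minus strand), had peaks of 2037 and 183 bases, covering 31.8% of the gene. The first starts 0.152 kb from its 5′ end, and the printed Malat1 window lies in it. Neat1, the scaffold of paraspeckles and a neighbour of Malat1, had none over 20.8 kb.

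Among RNAs listed as pluripotency-associated, 15 of 33 had a peak (45.5%, interval 29.8 to 62.0), 37 in all, beside 7.36% of all long non-coding genes. Platr28 and Platr21 had 6 each, Platr4 5, and Platr22 and Trp53cor1 3 each. Trp53cor1, counted in this list though it is a p53-induced lincRNA beside Cdkn1a, had wide peaks of 1005 to 2487 bases, covering 22.7% of the gene. Of RNAs known from differentiated tissues 3 of 16 had a peak (18.8%, 6.59 to 43.0), 7 in all: Sox2ot 5, Miat 1 and Mir124a-1hg 1. Hotair, Hottip, Fendrr, Rmst and Bvht were among the 13 with 0. Miat was also counted among the nuclear-body RNAs. The intervals of the pluripotency and differentiated-tissue lists overlap. Their median lengths were 9.17 and 17.0 kb, and neither list was matched for length. Sox2ot, which contains the stem cell gene Sox2, had its 5 peaks between 539 and 577 kb of 578 kb, 1 within 10 kb before the start of Sox2 and 4 farther than that from any coding gene. A peak list gives no level, so it does not check the cell type. Of 10 stem cell marker genes 4 had a same-strand peak, as did 5 of 7 for primitive endoderm, 1 of 6 for fibroblasts and 2 of 4 for neurons, beside 26.2% of all coding genes.

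Host genes of small RNAs had a peak in 8 of 29 (27.6%, interval 14.7 to 45.7), led by Dleu2 (8), Mir670hg (6) and Mirg (4). Among all long non-coding genes the share was 7.36%. The lists share genes, so this count is not separate from those above. Dleu2, Mirg, Meg3, Rian, Snhg14 and Mir124a-1hg were already counted there. Gas5 and the short Snhg genes other than Snhg14 had 0. No member overlapped a small nucleolar RNA gene, of which 327 lie inside long non-coding genes of their strand. Of 118 microRNA hairpins inside such genes 9 were overlapped, and with hairpins reaching past an annotated end 11, by 8 peaks in 6 genes. For scale, members covered 1134 kb, while long non-coding sequence outside same-strand coding genes was 188.5 Mb. Few overlaps with genes this short would be found at that coverage, and neither count was tested against it. Host transcript and microRNA precursor cannot be told apart by position. Some mature sequences of these hairpins are shown as RefSeq gives them for GRCm38.p6, to name the microRNAs at these peaks, with the seed (bases 2 to 8) in capitals. miR-29a-3p, whose hairpin is touched only at its 5′ border and whose mature sequence lies outside the peak, is shown because it shares the seed AGCACCA with miR-29b-3p.
mmu-miR-29a-3p: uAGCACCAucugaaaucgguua
mmu-miR-29b-3p: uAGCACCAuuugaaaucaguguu
mmu-miR-31-5p: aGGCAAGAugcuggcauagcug
mmu-miR-134-5p: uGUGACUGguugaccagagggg
mmu-miR-382-5p: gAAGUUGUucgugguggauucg
mmu-miR-770-5p: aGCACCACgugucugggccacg
mmu-miR-409-3p: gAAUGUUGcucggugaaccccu

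Most of the overlapped hairpins lay in the imprinted cluster on chromosome 12. The Mirg peak of 2522 bases (chr12:109732188-109734709, plus strand) spanned Mir382 and Mir134, and Mirg peaks of 308 and 1852 bases spanned Mir409 and Mir3072. Mir770 lay inside the 944-base peak of Meg3, and Mir341 and Mir1188 inside the 2965-base peak of Rian. Outside it, a peak of 1277 bases in Gm27019 (chr6:31062746-31064022, minus strand) spanned Mir29b-1 and touched the border of Mir29a. A peak of 798 bases in AL805899.1 on chromosome 4 spanned Mir31, and a peak of 1549 bases in Mir670hg spanned Mir670. Genes named here for a hairpin only, Gm27019 and AL805899.1, were chosen after their values were seen.

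Purines were somewhat more frequent in exonic peaks than beside them. Only the bases of a peak that lie in its spliced transcript were read, and each flank had that length. For 220 of the 380 exonic peaks, in 188 genes, the transcript held such a flanking window free of other peaks. Of these 220 peaks, 146 lay wholly inside 1 exon, and the others were read only in part. A and G made up 53.2% of the peak and 50.7% of the flank, a difference of 2.58 percentage points (SD over genes 6.85), positive in 126 of 188 genes (67.0%). In peaks wholly inside 1 exon (146 peaks) it was 2.01. The spread between genes is thus larger than the mean difference. For 2047 exonic peaks of coding genes the values were 54.5% and 52.3%, a difference of 2.20 points (SD 6.10 over 1645 genes). At least 1 of the 3 hexamers occurred in 130 of 220 peaks (59.1%, interval 52.5 to 65.4) and in 130 of 302 flanks (43.0%, 37.6 to 48.7). Each flank was as long as the part of its own peak that was read, but narrow peaks more often had both flanks. Shares of windows are therefore not like for like, and shares of bases are given beside them. The hexamers covered 1.46% of peak bases against 0.965% of flank bases. Their reverse complements, TCTTCT with its shifted forms, which stand for the other strand, occurred in 28.6% of peaks and 29.5% of flanks. These covered 0.486% of peak bases and 0.593% of flank bases. In coding genes 66.3% of exonic peaks and 52.0% of their flanks held a hexamer, with 1.83% and 1.28% of bases covered.

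Kcnq1ot1 varied within itself. Its 17 peaks with a flank had 55.7% purines against 54.0% beside them, a difference of 1.73 points, positive in 11 of 17, and the whole transcript had 53.8%. Peaks of Kcnq1ot1 ranged from 38.7% to 64.3% (median 57.0%), and the printed first and last Kcnq1ot1 windows come from these extremes. Hexamers occurred in 11 of the 17 peaks (64.7%) and 9 of 29 flanks (31.0%), and covered 1.48% of peak bases against 0.710% of flank bases. The most purine-rich exonic peak of all, chosen after its value was seen, was in CT485616.1, 130 bases wide with 90.7% purines against 54.3% beside it. The Gm37494 peak of the printed window had 68.8% against 48.5%.

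**Figure D5:**
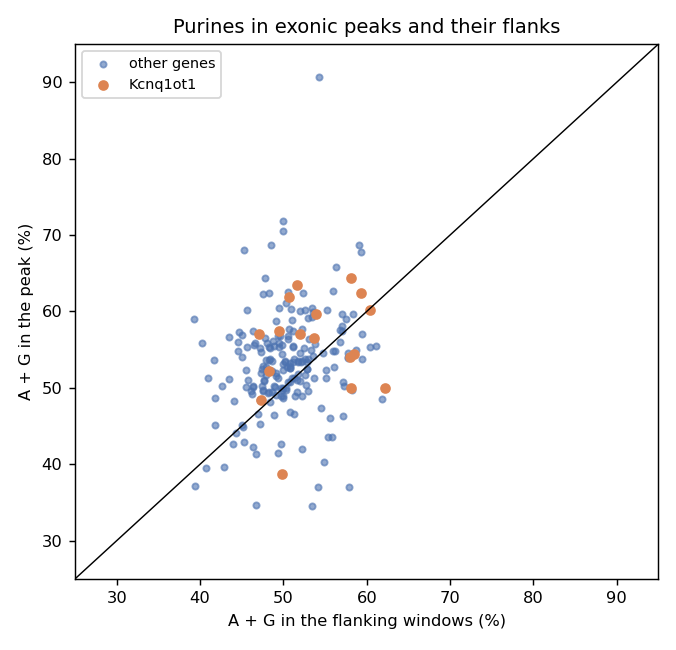
Purine content (A plus G, %) of each of the 220 exonic SAFB peaks (vertical axis) against its flanking windows in the same transcript (horizontal axis). Only peak bases in the spliced transcript were read. Kcnq1ot1 is in orange, other genes are in blue, and a line marks where both are equal. Of the peaks 146 lie above the line (66.4%), 1 of them at 90.7%.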

How the data were processed

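RNA was immunoprecipitated from mouse embryonic stem cells (9 libraries in 5 groups) and sequenced on a NextSeq 500 after removal of ribosomal RNA and addition of ERCC spike-in RNAs, per the labels' protocols. The deposited list has 6 columns without a header. Its score column, as deposited, holds 500 throughout and was left unused. The submitters' processing notes name mm10, STAR, Subread and featureCounts. The peak caller is not given in the sources used here, nor any pooling of libraries or the comparison behind the kept peaks. Names carry a wild-type label. Starts were taken as counted from 0, which no source states and which could shift a position by 1 base.

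Peaks were placed by midpoint in GENCODE M21 (55450 genes) with Python 3.11.15, pandas 2.3.3 and numpy 2.4.6, and the code was tested on simulated data. Shares have 95% Wilson intervals and medians order-statistic intervals. Both take peaks to be independent and cover only counting error. No test was run, since the list holds no value per library, and depth is unknown. Sequence came from GENCODE transcripts, so only exonic peaks could be read, and from RefSeq. The transcript holding most bases of the peak was used. Only the peak bases in that spliced transcript were read, and flanks had that length.

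Members and lists were chosen with earlier results of these data known. Named genes are the 20 with most members, the 5 with most exonic members, the 5 densest with at least 5 members, the 2 with most in each gene type and position class, and up to 4 of each list. Of the list entries, Ipw, Gm44503, Mcts2, Cdkn2b, Chaserr, Morrbid, Pint, Mir290a, Tuna, Lncpress1 and Gata6os matched no gene of these types. Alternatives varied the placement, peak width, gene set, exon set and window sizes.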

Additional observations from a re-analysis of the deposited data

How the results depend on the processing

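Of 52 alternative values 34 stayed within the interval of the main value, or within 1.5 times for counts, and 18 moved. The exonic share was 22.6% with the whole peak inside the gene, 29.8% with peaks no narrower than the list's median, and 36.2% with each gene counted once. That width limit left 754 members in 495 genes. Counting each gene once also gave antisense 25.9%, divergent 30.5%, downstream 4.58% and distant 31.6%. Without the 5 genes with most members, divergent was 30.5% and distant 36.5%. With starts within 1 kb or 5 kb, divergent was 24.03% or 31.8%. Windows of 5 kb gave downstream 1.70% and distant 43.7%, and windows of 50 kb 10.7% and 24.4%. The purine difference was 2.01 points for members inside 1 exon, outside an interval of 2.18 to 2.97 that counts bases as independent and is narrower than the spread between genes would give. This was a setting chosen, like the one without Kcnq1ot1, after seeing the data. Apart from the construction of each setting, the cause was not tested. No paired analysis was possible because the list holds no value per library, and for the same reason no library could be left out. Leaving out soft-masked repeats was not run, since the transcripts carry no masking. Depth, unknown here, limits what the absence of a peak can say.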
